A study of Mus musculus with 2 samples.

Results

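N-terminal acetyltransferases (Nats) are the enzymes that add an acetyl group to the first residue of a protein while it is still being made on the ribosome. The results below are for their subunit genes. The 10 genes were Naa10, Naa15, Naa16, Naa20, Naa25, Naa30, Naa35, Naa38, Naa40 and Naa50. Naa20 was picked because its ratio between the arrays was among the widest in the table, and the other subunits were taken with it as a family. Members were matched by the platform's gene symbol to probe sets that carry a single symbol. Of the 10 genes, 9 were measured, through 10 probe sets, out of 19938 named genes in all. Naa10, the catalytic subunit of NatA, had no match and is not analysed here. Naa20 had 2 probe sets and each of the other 8 measured genes had 1.

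The samples were 2 Affymetrix arrays of RNA from cortical thymic epithelial cells (cTECs), the cells that support early thymocytes in the outer thymus. One array, labelled Tg, held RNA of Aire transgenic mice, in which Aire is expressed from the promoter of the cortical thymoproteasome gene for β5t (Psmb11) by semi-knockin. Aire is the regulator with which medullary epithelial cells transcribe genes of other tissues. The other array, labelled non-Tg, held RNA of control mice. Both groups were NOD mice, a strain prone to autoimmune diabetes, at day 7. The source labels read 7 Tg and 5 non-Tg, which is taken here as the number of animals pooled per array. Each genotype had 1 array, so no value has a replicate error, no test was made, and every difference below compares these 2 arrays and not the genotypes. In RNA of a cell population, fewer cells that express a gene and less RNA per cell cannot be told apart.

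Nat complexes share out proteins by their first residues. NatA, built of Naa10 on the ribosome anchor Naa15 or its paralogue Naa16, acetylates small residues that are exposed once the starting methionine has been removed. Naa50, the catalytic subunit of NatE, binds the same anchor. NatB, built of the catalytic Naa20 and the auxiliary Naa25, acetylates a methionine that is followed by an acidic residue or its amide, which includes many cytoskeletal proteins. NatC, built of the catalytic Naa30 with Naa35 and Naa38, acetylates a methionine followed by a hydrophobic residue. NatD is Naa40 alone, and its known substrates are histones. Nearly all cell types need these enzymes, and they are not known as tissue-restricted genes.

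The array labelled Tg carried more Aire signal, with a log2 level of 7.33 against 6.06, a ratio of 1.28 on the log2 scale (2.43-fold). Psmb11 had levels of 10.51 and 10.15. All 10 of 10 cTEC marker genes passed the filter for dim genes, as did 11422 of the 19938 named genes. Their log2 ratios lay between 0.05 and 0.57. Passing the filter does not set cTECs apart from other cells. Markers of medullary epithelial cells passed in 5 of 5 measured genes, endothelial markers in 4 of 4 and fibroblast markers in 4 of 5. Fewer passed for macrophages and dendritic cells (2 of 6), B cells (2 of 4) and erythroid cells (1 of 2). Thymocyte RNA was detected as well, with 8 of 9 measured markers past the filter and log2 ratios from -0.49 to 0.18. Their summed signal was 12.17 in Tg and 12.32 in non-Tg on the log2 scale. Over the 8 marker lists of thymic and other cell types, 45 genes were measured and 36 passed the filter. Of these, 0 were 2-fold apart, where 1.17% of all genes past the filter were, so that a list of this size could hold none without further meaning. Xist, expressed from the inactive X chromosome of females, was at 7.78 in Tg against 6.28 in non-Tg, and the Y-linked Eif2s3y at 6.40 against 7.36, so signals of sex-linked genes differed between the pools. Their part in any result below was not tested.

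All levels below are deposited log2 values, and a log2 ratio is Tg minus non-Tg. For the ratio, values under a floor of 4.80 (the 25th percentile of all values) would be raised to it, which touched no member. A gene passed the filter if it reached the median of its array, 5.43 in Tg or 5.45 in non-Tg, on at least 1 array. The filter was passed by 11422 genes and by 9 of the 9 measured members. No test being possible, genes were called higher or lower at 2-fold, a log2 ratio of 1. The nearest available scale of error is the difference between the ratios of the 2 brightest probe sets of a gene. Over 658 genes it had an SD of 0.427. The SD was 0.294 in the 258 genes whose 2 probe sets carry identical lists of transcript accessions, and 0.493 in the other 400. This scale leaves out any difference between mice, pools or amplification reactions.

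Of the 9 measured subunits, 1 was at least 2-fold lower in Tg, Naa20, and 0 were at least 2-fold higher. Over all genes past the filter 0.376% were called lower, 0.797% higher and 1.17% either way, but Naa20 was chosen for this ratio and nothing can be read from its call. At 1.5-fold, 2 members were lower (Naa20 and Naa30), against 3.13% of all genes, and 1 was higher (Naa40), against 4.74%. Together these were 3 of 9 members against 7.86% of all genes. Both the lower count and this total include Naa20, whose place in them was fixed by its selection, so neither can be compared with the share of all genes. Of the 9 members, 6 lay within 0.5 of 0, beside 88.2% of all genes past the filter. Naa20 was outside this range by its selection, so these shares cannot be compared either. The members' log2 ratios had a median of -0.07, with 5 below 0 and 4 above, beside a median of 0.01 and 48.4% below 0 over all genes past the filter.

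**Figure D1:**
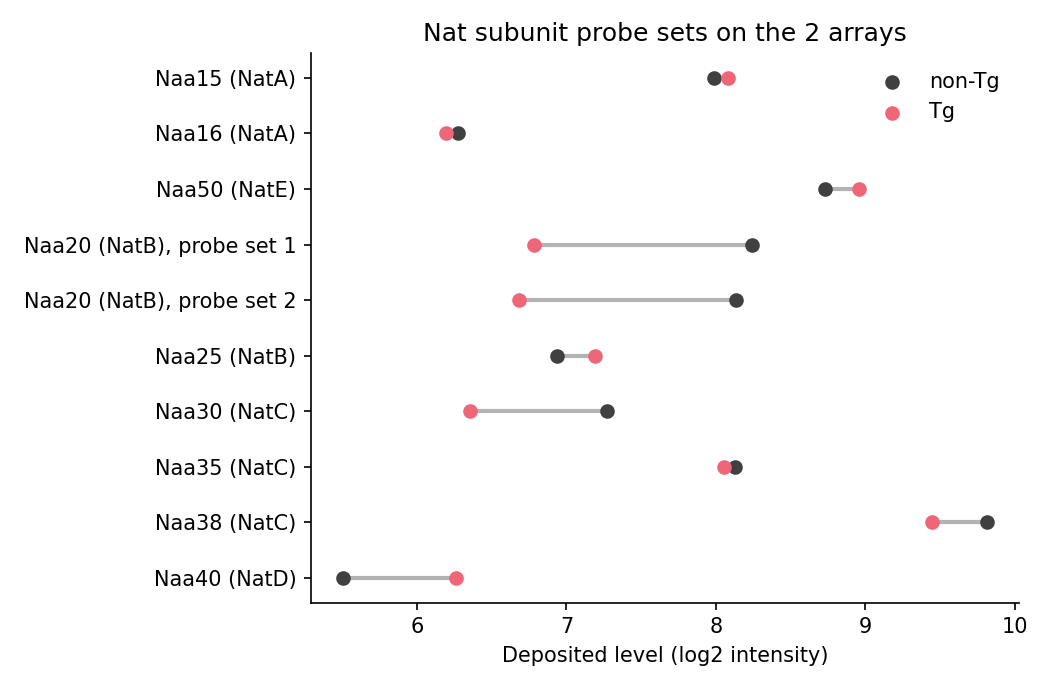
Deposited log2 level (x axis) of each of the 10 Nat subunit probe sets (rows) on the Tg array (red points) and the non-Tg array (dark points), joined by a grey line. The lines are longest for both Naa20 probe sets and for Naa30 (Tg lower) and Naa40 (Tg higher); levels of different genes are not comparable.

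NatB was the complex whose subunits differed most from each other. Naa20, its catalytic subunit, had a level of 6.78 in Tg against 8.24 in non-Tg on probe set 10476775. Its other probe set, 10572932, read 6.68 against 8.13. Both probe sets were lower in Tg, with log2 ratios of -1.46 and -1.45, or 2.75-fold and 2.74-fold. Among the 11422 genes past the filter, Naa20 had the 9th lowest ratio, on the brighter of its probe sets. Naa25, the auxiliary subunit that tethers Naa20 to the ribosome, had 7.19 in Tg against 6.94 in non-Tg on its 1 probe set, 10525271. Its log2 ratio was 0.26 (1.19-fold higher in Tg), the opposite sign to that of Naa20. The NatB partner therefore did not share the difference of Naa20 on these arrays. The 2 ratios were 1.71 apart, most of it the ratio for which Naa20 was picked.

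The Naa20 probe sets cannot be taken as 2 separate readings of the gene. The platform annotation gives both the same list of transcript accessions. Their levels differed by 0.10 on each array and their ratios by less than 0.01. Across the 658 genes, the 2 brightest probe sets carried identical accession lists in 258. In those the ratios differed by a median of 0.05, against 0.23 in the 400 genes whose lists differed. In 58 of the 258 the ratios lay within 0.01 of each other, as for Naa20. Whether both Naa20 probe sets read the same bases, or one of them a copy of the gene elsewhere, is stated nowhere in these sources, so they were counted as 1 gene.

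The only sequence shown is the part of the genome directly before the Naa20 start site, because Naa20 is the gene on which these results turn. It is credited to RefSeq, build GRCm38.p6, plus strand, chr2:145902991-145903240. The 250 bases end at the base before the start, and capitals mark a match to CCGGAAGT, the core bound by ETS family factors.

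Naa20: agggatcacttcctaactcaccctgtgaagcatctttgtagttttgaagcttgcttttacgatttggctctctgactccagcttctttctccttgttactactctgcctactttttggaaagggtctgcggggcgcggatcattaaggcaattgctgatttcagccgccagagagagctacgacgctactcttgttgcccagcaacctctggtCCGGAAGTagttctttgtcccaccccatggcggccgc

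The marked match starts 37 bases before the start site. A further match begins at base 11 after the start and is not printed, and its strand was not recorded. Both strands were searched in windows of 300 bases, 250 before and 50 after each start, of which the table holds 32851, and 8 of the 10 members had at least 1 window. CCGGAAGT was found in 3.89% of all windows, and 0.356% held at least 2 matches. Among the 8 members with a window, Naa20 alone held it. Naa38 and Naa25, the NatB partner of Naa20, had no window and could not be searched. The CCAAT box, spelled CCAAT, stood in the windows of 2 members, Naa10 and Naa15, and in 37.4% of all windows. TATAAA, the TATA box, stood in 0 members and 13.6% of all windows.

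GC content of the members' windows ran from 55.3% in Naa20 to 73.3% in Naa30, each above the median of 52.7% over all windows, with Naa20 the closest to it. Each of the 10 member windows held 21 to 36 CpG dinucleotides, where the median window held 7 and 24.8% of all windows held 21 or more. Naa20 and Naa10 were at the lower end, with 21 each. The arrays measured RNA and not these sequences, and a match is a description and not a site.

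Genes beside Naa20 did not differ in the same way. The nearest protein-coding genes in the RefSeq gene table are Rin2, a guanine nucleotide exchange factor for Rab proteins, and Crnkl1, a splicing factor. Rin2 had levels of 6.51 (Tg) and 6.42 (non-Tg), and Crnkl1 of 7.70 (Tg) and 7.38 (non-Tg). Both log2 ratios, 0.09 and 0.32, lay on the other side of 0 from that of Naa20. Beside Naa25 stand Trafd1, a regulator of innate immune signalling, with a log2 ratio of 0.12, and Erp29, a chaperone of the endoplasmic reticulum, with 0.18. Both neighbours of Naa25 thus had small positive ratios, as Naa25 did.

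NatC showed the next widest difference, again in its catalytic subunit. Naa30 (probe set 10414460) read 6.36 in Tg against 7.27 in non-Tg. The log2 ratio was -0.91, or 1.88-fold lower. This was the 67th lowest ratio of 11422 and lay just outside the 2-fold rule. Its partners were closer to 0. Naa35 (10405662), the large auxiliary subunit, read 8.06 against 8.13 (log2 ratio -0.07). Naa38 (10377541), the small Sm-like subunit, read 9.45 in Tg against 9.81 (log2 ratio -0.36, 1.29-fold lower). All 3 NatC ratios lay below 0, as did 48.4% of all genes past the filter, but Naa35 was near equal on both arrays. The ratio of Naa30 stood 0.84 below that of Naa35 and 0.55 below that of Naa38. The symbol Naa38 has also been used for Lsm8, a spliceosomal Sm-like gene; the probe set named here carries the gene ID of the NatC subunit. Lsm8 itself read 7.71 in Tg against 8.12.

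The anchors of NatA were near equal on both arrays. Naa15 (10491922) read 8.08 in Tg against 7.99 in non-Tg, with a log2 ratio of 0.09. Naa16 (10421817) read 6.19 against 6.27, with a log2 ratio of -0.08. These 2 paralogues differed in ratio by 0.17, within the SD of 0.427 between probe sets of one gene, and whether their probe sets cross-hybridise was not tested. Naa50 (10435821), which sits on the same anchor, read 8.96 in Tg against 8.73 in non-Tg, 1.17-fold higher (log2 ratio 0.23). Hypk, the chaperone-like partner of NatA, read 10.79 against 11.00 (log2 ratio -0.20).

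NatD, which is Naa40 alone, differed in the opposite direction from Naa20 and Naa30, the catalytic subunits of NatB and NatC. Naa40 (10465638) read 6.26 in Tg against 5.51 in non-Tg, 1.69-fold higher (log2 ratio 0.75). That was the 249th highest ratio of 11422. Its non-Tg value lay 0.05 above the median of that array, so the gene was dim in the control. How far this affected its ratio, read from 1 probe set, was not tested.

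**Figure D2:**
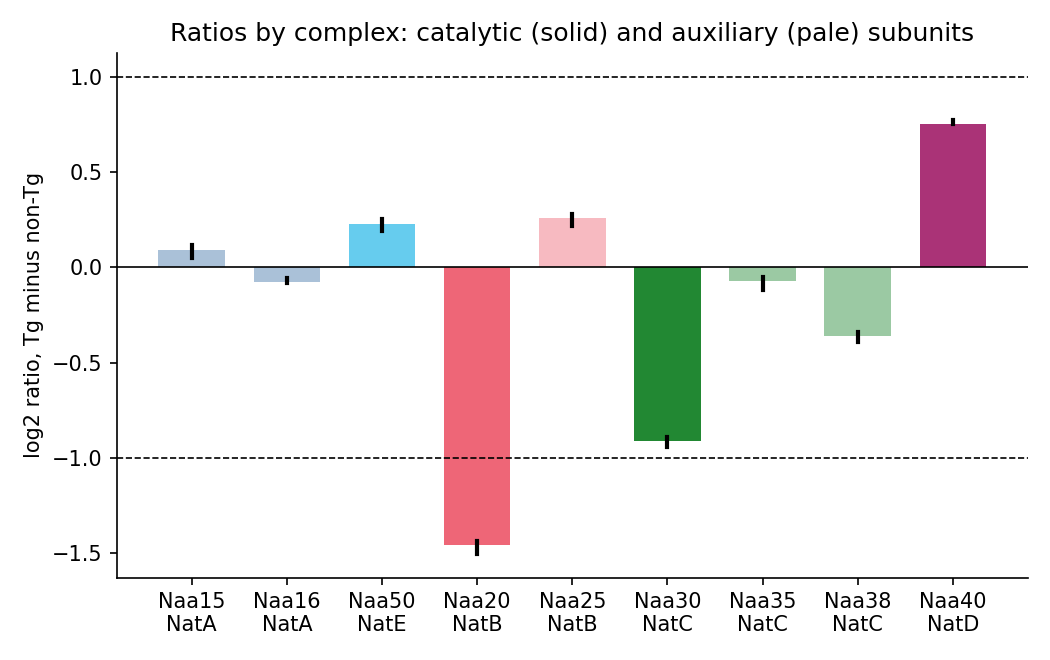
Log2 ratio of Tg over non-Tg (y axis) for the 9 measured Nat subunits, grouped and coloured by complex, with catalytic subunits in solid and auxiliary subunits in pale bars; dashed lines mark 2-fold and black ticks span the values under 5 processing settings, not a replicate error. The bars of Naa20 (-1.46), Naa30 (-0.91) and Naa40 (0.75) are the longest, and every auxiliary subunit lies between -0.36 and 0.26.

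Arranged by role, the wide ratios lay in catalytic subunits. Of 4 measured catalytic subunits, Naa20, Naa30 and Naa40 lay beyond 1.5-fold and Naa50 did not. Of 5 auxiliary subunits, 0 lay beyond 1.5-fold. Over all genes past the filter 7.86% did, so 5 genes could hold none without further meaning. Absolute log2 ratios had a median of 0.83 in the catalytic and 0.09 in the auxiliary group, and of 0.19 over all genes past the filter. The sign was not shared, since Naa40 and Naa50 were above 0. This arrangement was noticed after the values were seen and contains the gene picked for its ratio, so it is a description with no test.

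**Figure D3:**
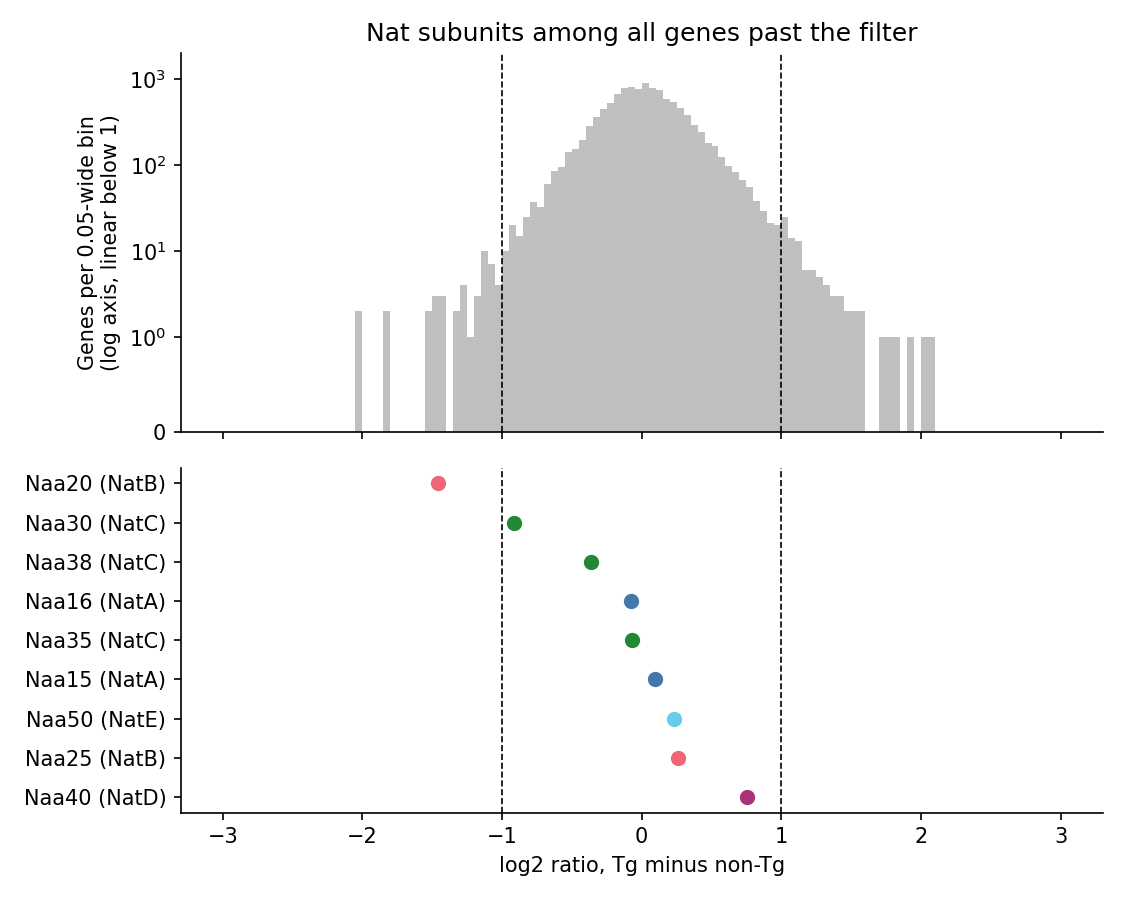
Upper panel, number of genes (y axis, log scale) per bin of the log2 ratio of Tg over non-Tg (x axis) for the 11422 genes past the filter; lower panel, the ratio of each of the 9 measured Nat subunits, coloured by complex, with dashed lines at 2-fold in both. Naa20 sits in the sparse left tail at -1.46, Naa30 just inside the left line at -0.91, and 6 subunits lie within 0.5 of 0.

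The genes past the filter with values closest to those of Naa20 were Cfap57, Mrpl40 and I730030J21Rik, by Euclidean distance over the 2 arrays. Cfap57, a cilium gene, read 6.71 in Tg against 8.20 in non-Tg, at a distance of 0.08. Mrpl40, a mitochondrial ribosomal protein gene, read 6.91 against 8.15, at a distance of 0.16. I730030J21Rik read 7.01 against 8.29, at a distance of 0.23. Likeness over 2 values says little more than that these genes were lower in Tg too, and none of them is another Nat subunit.

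Other genes of N-terminal protein processing, of acetyl-CoA supply and of other acetyltransferases were taken as 7 lists of 36 genes. The lists include 12 acetyltransferases outside the Nat family and 3 genes of acetyl-CoA supply, so values over all 7 cover more than N-terminal processing. Of the 36 genes, 31 were measured and 27 passed the filter. Of these 27, 0 were 2-fold higher and 0 were 2-fold lower, beside 1.17% of all genes. Their log2 ratios ran from -0.65 to 0.63, with a median over the 31 of 0.10. Beyond 1.5-fold were 2 higher and 1 lower, beside 4.74% higher and 3.13% lower over all genes past the filter. They were the ubiquitin ligase gene Marchf6 at 0.63, the arylamine acetyltransferase gene Nat2 at 0.60 and the Golgi-bound acetyltransferase gene Naa60 at -0.65. These 3 were named after their values were seen. Naa20, Naa30 and Naa40 each lay further from 0 than any of the 31 genes, but for Naa20 this follows from its having been picked for its ratio.

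Of the list of other N-terminal acetyltransferases and partners, the 2 measured genes lay below 0, as did 48.4% of all genes past the filter. Naa60 read 7.21 in Tg against 7.86 in non-Tg, and Hypk is given above. Naa80, which acetylates actin after NatB and further processing enzymes have exposed its acidic end, was read only by 2 probe sets that also carry the symbol Hyal1. Those had log2 ratios of 0.27 and -0.22, which differ in sign, and neither can be assigned to Naa80. Naa11, a paralogue of Naa10, had no match and is not analysed here.

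Genes that act on new protein ends before or beside acetylation were all within 0.5 of 0. The methionine aminopeptidases, which remove the starting methionine, were represented by Metap2 at 0.16 and Metap1 at -0.34, and Metap1d did not pass the filter. The myristoyltransferases, which compete for some of the same protein ends, were Nmt1 at -0.17 and Nmt2 at 0.44. The nascent chain-binding subunits were Naca at 0.04 and Btf3 at -0.38, with a list median of -0.19 over 3 genes. Each of these 3 lists held members on both sides of 0.

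Of the genes that supply acetyl-CoA, the donor of the acetyl group, 3 of 3 had ratios above 0, with Acss2 at 0.08. The citrate carrier gene Slc25a1 read 7.65 in Tg against 7.14 in non-Tg (0.52), and ATP citrate lyase, Acly, 6.73 and 6.31 (0.42). The median over the 3 genes was 0.42. N-degron genes, whose products recognise protein ends for degradation, had 5 of 6 measured members above 0 and a median of 0.35. Over all genes past the filter 48.4% lay below 0, so these counts over so few genes are only a description. Marchf6, whose ligase recognises some acetylated ends, read 8.10 in Tg against 7.47, and the ligase gene Cnot4 had a log2 ratio of 0.49. The arginyl transferase gene Ate1 read 7.70 against 7.39 (0.31). The only member below 0 was Ubr2 at -0.21. Each of these ratios was below 2-fold.

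Other acetyltransferases outside the Nat family, a list of 12 genes with 9 past the filter, had log2 ratios from -0.40 to 0.60. The median over all 12 was 0.12, with 2 dim genes at 0 because both of their values lay under the floor. Gnpnat1, of the hexosamine pathway, had 0.26 and Nat9 0.28. The histone acetyltransferase genes Kat2a and Kat2b had -0.40 and 0.55, of opposite sign. The list was drawn up as enzymes of one fold, but Nat1 and Nat2, the arylamine acetyltransferases, belong to another.

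**Figure D4:**
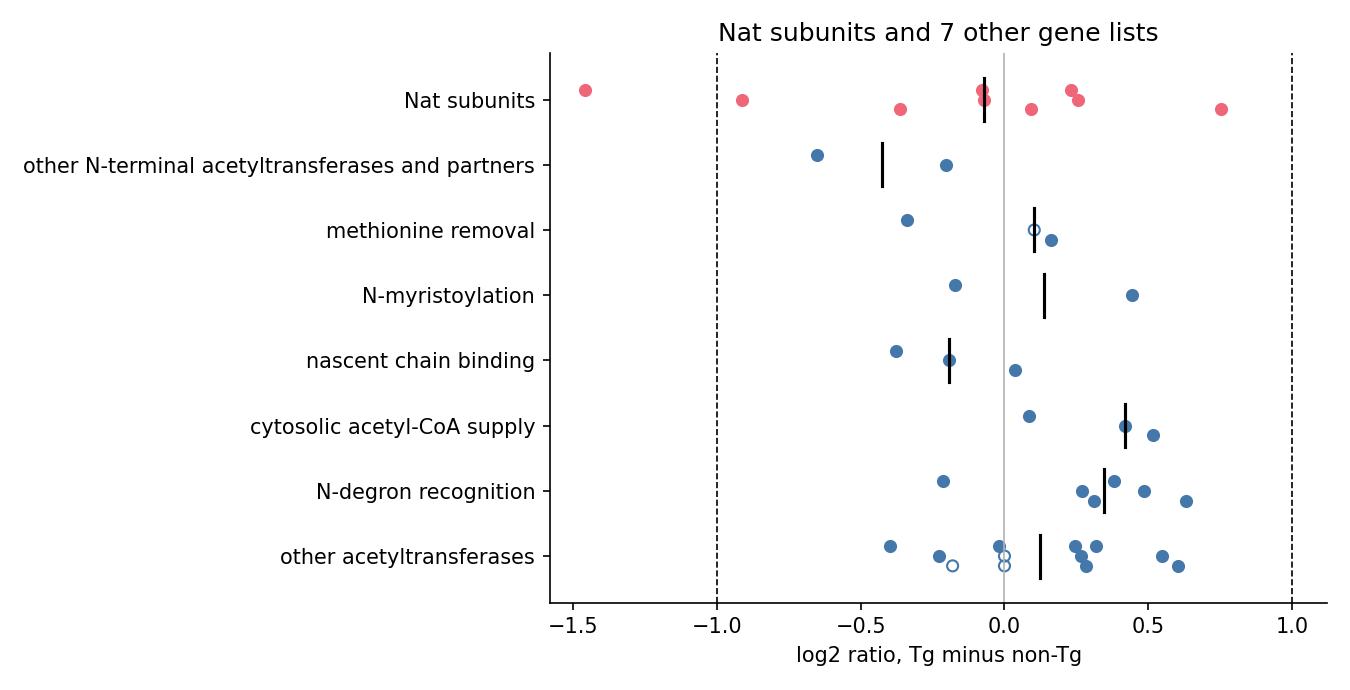
Log2 ratio of Tg over non-Tg (x axis) for the 9 measured Nat subunits (red) and the measured genes of 7 other lists (blue; open circles did not pass the filter), with black ticks at each list's median and dashed lines at 2-fold. Naa20, which was picked for its ratio, is the only point beyond a dashed line, and the 31 genes of the other lists lie between -0.65 and 0.63.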

How the data were processed

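The deposited table has 28856 probe sets with 1 value for each array, read as log2 from its range of 4.22 to 13.70. Per the labels' protocols, 400 pg of total RNA was amplified to cDNA and 5.5 µg of it was labelled with biotin. How the authors corrected background or normalized, and on which build, was not given in the sources used here. Columns of other samples numbered 0. Platform annotation named 21789 probe sets with 1 symbol, 1621 with several and 5446 with none. The gene IDs of 21698 were found in RefSeq GRCm38.p6. For each gene, the probe set with the highest mean was used.

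All 9 measured members were named, with every probe set; of other lists, members beyond 2-fold or else the 2 brightest past the filter, and the neighbours and closest genes of Naa20. Further genes were named after their values were seen. Members and lists were chosen with earlier results of these data known. Floor, filter, scaling, probe set choice and fold rule were varied. The calling script was tested on simulated data with known fold changes. Python 3.11.15, numpy 2.4.6, pandas 2.3.3 and matplotlib 3.10.9 were used. The number of arrays limits the precision.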

Additional observations from a re-analysis of the deposited data

How the results depend on the processing

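No paired analysis was possible because each genotype had 1 array. With no floor, quantile normalization, median centring or the mean of a gene's probe sets, the 9 member ratios kept their sign and moved by at most 0.05. The difference between Naa20 and Naa25 stayed between -1.72 and -1.71, and the members' median between -0.08 and -0.05. Much of this was fixed in advance. The floor touched no member, and median centring shifts every ratio by the same amount, so it cannot change a difference. The mean of probe sets could change Naa20 alone. Only quantile normalization could move the members unevenly. At 1.5-fold in place of 2-fold, 3 members and 898 genes in all were counted, against 1 and 134. With the other settings, which include no filter and a filter at the 75th percentile (passed by 7 members), 1 member and 104 to 138 genes were counted, and 0 genes of the other lists. No detection calls or scanner files were used here, so signal over background could not be judged per gene.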
